A study of Mus musculus with 2 samples.

Results

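The Mir181 family was followed in microRNA sequencing of the facial prominences of mouse embryos, the buds of neural crest mesenchyme covered by epithelium from which the face and jaws grow. The 6 members, Mir181a-1, Mir181b-1, Mir181a-2, Mir181b-2, Mir181c and Mir181d, were chosen by gene symbol out of 1973 annotated miRNA genes, and all 6 were found in the tables. The embryos were of the strain B6NCrl at embryonic day 10.5, healthy and of both sexes, and no treatment or allele is given for either library. Replicate 1 pooled the prominences of 69 embryos and replicate 2 those of 51. There is thus 1 group with n = 2 libraries, no control group, and each library averages over many embryos and all cell types of the prominences.

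A miRNA gene is transcribed as a hairpin, and either arm of the hairpin, named 5p or 3p, can become the mature miRNA. The seed, bases 2 to 8 of the mature strand, pairs with target mRNAs, so miRNAs with the same seed form a family. The Mir181 family is best known from lymphoid cells, where miR-181a tunes T cell receptor signalling, and has also been studied in neurons, retina, muscle and vessels.

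The mature sequences are shown first, because the arms that members share decide which reads can be given to 1 gene. They are RefSeq sequences on GRCm38.p6, the build that mm10 names, written 5′ to 3′ with the seed in capitals. All 6 members had mature arms in the RefSeq table (12 arms, 10 distinct sequences), and 5 had a hairpin there, all but Mir181c. The 5p arms, in which the members share 1 seed, were:
miR-181a-5p, from Mir181a-1 and Mir181a-2: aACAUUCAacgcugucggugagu
miR-181b-5p, from Mir181b-1 and Mir181b-2: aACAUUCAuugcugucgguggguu
miR-181c-5p, from Mir181c: aACAUUCAaccugucggugagu
miR-181d-5p, from Mir181d: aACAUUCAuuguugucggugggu

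No gene outside the family had a mature arm with this seed among the 1058 genes of the RefSeq table. Behind the seed the arms fell into an a and c type and a b and d type. miR-181a-5p and miR-181b-5p shared their first 8 bases and differed in register by A9U, C10U and A21G, with positions counted from the 5′ end and the base of miR-181a-5p first. miR-181c-5p equalled miR-181a-5p with the base at position 11 left out. miR-181d-5p differed from miR-181b-5p by C12U and ended 1 base earlier.

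The 3p arms differed between all 6 members, and they are shown because they are the mature sequences that separate the copies of miR-181a and miR-181b:
miR-181a-1-3p, from Mir181a-1: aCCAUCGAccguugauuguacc
miR-181a-2-3p, from Mir181a-2: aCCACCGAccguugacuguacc
miR-181c-3p, from Mir181c: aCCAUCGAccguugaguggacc
miR-181b-1-3p, from Mir181b-1: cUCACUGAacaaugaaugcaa
miR-181b-2-3p, from Mir181b-2: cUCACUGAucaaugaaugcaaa
miR-181d-3p, from Mir181d: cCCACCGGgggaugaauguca

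Mir181a-1 and Mir181c shared a 3p seed, and so did Mir181b-1 and Mir181b-2. The 3p seeds of Mir181a-2 and Mir181d were each found in no other gene of the table. miR-181a-1-3p and miR-181a-2-3p differed by U5C, inside the seed, and U16C. miR-181b-1-3p and miR-181b-2-3p differed by A9U, behind the seed, and by 1 base of length.

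The identity between copies ran past the mature 5p arm. The hairpins of the copies follow, with the stretch around the 5p arm that is identical in each pair of copies in capitals:
Mir181a-1: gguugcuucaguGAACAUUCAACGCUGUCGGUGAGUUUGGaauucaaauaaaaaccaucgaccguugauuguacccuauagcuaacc
Mir181a-2: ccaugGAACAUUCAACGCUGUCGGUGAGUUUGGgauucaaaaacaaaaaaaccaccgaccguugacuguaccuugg
Mir181b-1: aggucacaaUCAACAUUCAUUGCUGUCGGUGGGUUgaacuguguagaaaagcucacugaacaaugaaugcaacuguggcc
Mir181b-2: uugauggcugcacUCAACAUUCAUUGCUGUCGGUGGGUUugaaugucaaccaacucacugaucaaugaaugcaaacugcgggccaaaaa

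The Mir181a copies were identical over 28 bases, and a read that starts at the first base of the 5p arm needs 28 bases to tell them apart. The Mir181b copies were identical over 26 bases, and such a read needs 25 bases, 1 more than the annotated arm. The deposited tables list reads that map to several places in a summary line and not under a gene (27.6% of all reads in replicate 1 and 25.9% in replicate 2). Reads of the annotated length from the 5p arms of these 4 genes are therefore missing from their counts, and the counts of the a and b genes understate their output by an unknown amount. No other hairpin of the table held either arm of Mir181c or Mir181d, and positions outside hairpins were not searched. The tables do not split a gene's count by arm.

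The genes form 3 pairs. Mir181a-1 (ENSMUSG00000065565.1, chr1:137966455-137966541, mm10, plus strand) and Mir181b-1 (ENSMUSG00000065458.1, chr1:137966639-137966718) lie 97 bases apart, both in an intron of the non-coding transcript Gm4258. Mir181b-1 also lies within an exon of the long non-coding gene A430106G13Rik, which Mir181a-1 overlaps at its edge. Mir181a-2 (ENSMUSG00000065423.1, chr2:38852735-38852810, plus strand) and Mir181b-2 (ENSMUSG00000065578.1, chr2:38853830-38853918) lie 1019 bases apart, on the strand opposite Nr6a1, an orphan nuclear receptor gene, within an intron of it. Mir181c (ENSMUSG00000065483.1, chr8:84178873-84178961, minus strand) and Mir181d (ENSMUSG00000076338.1, chr8:84178716-84178787) lie 85 bases apart in an intron of Nanos3, a gene known from germ cells, and on its strand.

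Of 6828248 reads in replicate 1 and 8643947 in replicate 2, the tables assign 2853511 and 3517226 to a miRNA gene in sense. A level in CPM is a gene's count scaled to that library total. Genes with no count may still reach the level of 3 counts, 1.05 CPM in the first library or 0.853 CPM in the second. Amplified reads are not independent molecules, so the intervals and p-values below account for counting error alone. The highest markers of the tissue were abundant: the mesenchymal Mir214 had 15275 and 13802 CPM, and Mir205 of surface epithelium had 9689 and 8685 CPM. Other markers of the same lists were lower. The lowest were Mir199a-1 of mesenchyme (13.3 and 7.96 CPM), which shares an arm with another gene, and Mir200a of epithelium (639.9 and 427 CPM).

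The family took 1.42% of all miRNA counts. Its sum was 15919 CPM in replicate 1 and 12561 CPM in replicate 2 (14240.2 ± 2374 CPM, SD, n = 2). All 6 members had at least 10 counts in each library. The pair of Mir181c and Mir181d held most of it, with 71.0% of the family's counts in replicate 1 and 71.2% in replicate 2. The pair of Mir181a-1 and Mir181b-1 held 14.9% and 17.0%, and that of Mir181a-2 and Mir181b-2 held 14.1% and 11.8%. The 4 genes whose 5p arm is shared held 29.0% and 28.8% of the family's counts together. Reads of the shared arms are missing from these genes and from the family's sum, so all these shares are shares of assigned counts.

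Mir181c, in which both arms are unique to the gene, was the highest member in assigned counts. It had 16611 counts or 5821 CPM in replicate 1 (exact Clopper-Pearson 95% interval 5733 to 5910.2) and 16500 counts or 4691 CPM in replicate 2 (4620.1 to 4763). It stood at rank 38 of all genes in replicate 1 and at rank 46 in replicate 2. Mir181d, its neighbour, had 15655 counts or 5486 CPM in replicate 1 (5401 to 5573) and 14964 counts or 4254 CPM in replicate 2 (4187 to 4323). Mir181c was above Mir181d in each library, by 1.06 and 1.10 times. Either gene differed by more than that from library to library (1.24 and 1.29 times), but the genes were lower together in replicate 2, and Mir181c had the larger count in each library beyond counting error (the split of the pair is given further on).

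Mir181a-1 came next, with 6646 counts or 2329 CPM in replicate 1 (2273 to 2386) and 7434 counts or 2114 CPM in replicate 2 (2066 to 2162). Mir181b-2 had 4983 counts or 1746 CPM (1698 to 1795) and 3788 counts or 1077 CPM (1043 to 1112). Mir181a-2 had 1418 counts or 497 CPM (471 to 523) and 1404 counts or 399 CPM (379 to 421). In assigned counts the 3 genes all lay below Mir181d in each library.

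Mir181b-1, which shares its 5p arm with Mir181b-2, was the lowest member in assigned counts by far. It had 112 counts or 39.2 CPM in replicate 1 (32.3 to 47.2) and 91 counts or 25.9 CPM in replicate 2 (20.8 to 31.8), at rank 251 and rank 277. Its 3p arm is its own, so reads of that arm can be counted at this gene.

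**Figure D1:**
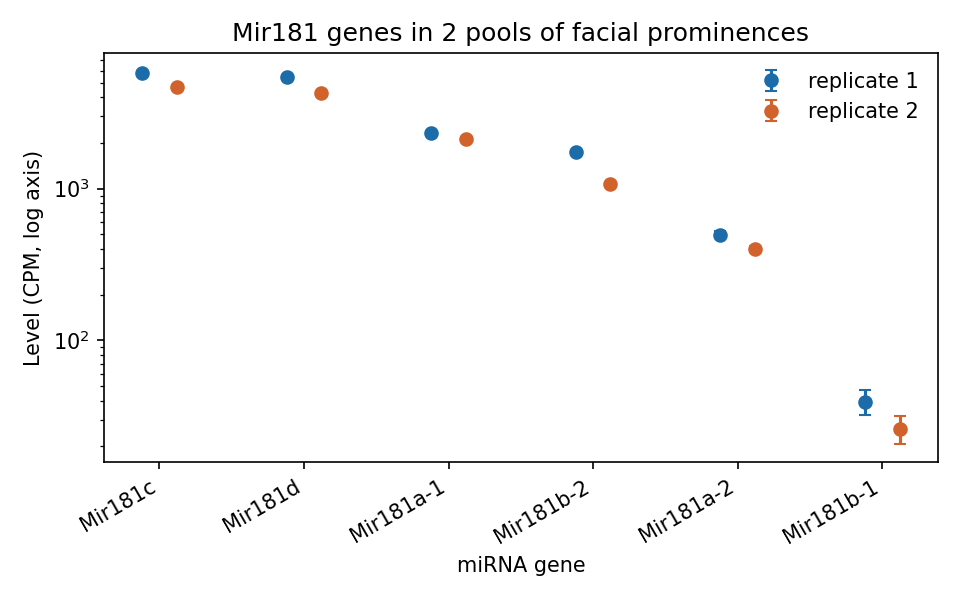
Level in CPM (log axis) of each Mir181 gene in replicate 1 and replicate 2, with exact Clopper-Pearson 95% intervals of the count as bars, which are hidden behind the points where narrow. Mir181c and Mir181d lie together between 4254 and 5821 CPM, Mir181b-1 lies at 39.2 and 25.9 CPM, and every gene has the lower point in replicate 2.

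Neighbours in the order of mean CPM were called separated where they kept their order in each library with a log2 gap larger than the larger log2 ratio between libraries of the pair. The rule takes the difference between libraries as the error even where a pair of genes shares it, as Mir181c and Mir181d do, and it did not separate them. By that rule 3 of the steps were separated: Mir181d above Mir181a-1 (2.36 times in replicate 1 and 2.01 times in replicate 2), Mir181b-2 above Mir181a-2 (3.51 and 2.70 times) and Mir181a-2 above Mir181b-1 (12.7 and 15.4 times). Mir181a-1 was above Mir181b-2 by 1.33 and 1.96 times, which the rule does not separate, since Mir181b-2 itself differed by 1.62 times between the libraries. The annotated hairpins are 72 to 89 bases long. On the scale of CPM per 100 bases of hairpin, Mir181d (7619.8 and 5909) was above Mir181c (6541 and 5271), so these neighbours changed order on that scale. The other members kept their order with Mir181b-1 lowest (49.1 and 32.3). The inserts were under 30 nt, shorter than any of these hairpins, so hairpin length need not set the number of reads. With 2 libraries no exact test between genes can reach 0.05. Differences between genes are differences in counted reads, and small RNA libraries also favour some sequences. The a and b genes lack reads of their shared arm, unlike Mir181c and Mir181d, whose arms are not shared with another gene. The rule takes no account of that loss. The separated steps, Mir181d above Mir181a-1 among them, thus order assigned counts and need not be the order of the full output.

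By the type of the 5p arm, the a and c genes summed to 8647 and 7204 CPM, and the b and d genes to 7272 and 5357 CPM. The a and c type was the higher in each library, with 54.3% and 57.4% of the family's counts. The ordering rests on genes that lose their shared 5p reads, so it describes the assigned counts alone.

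**Figure D2:**
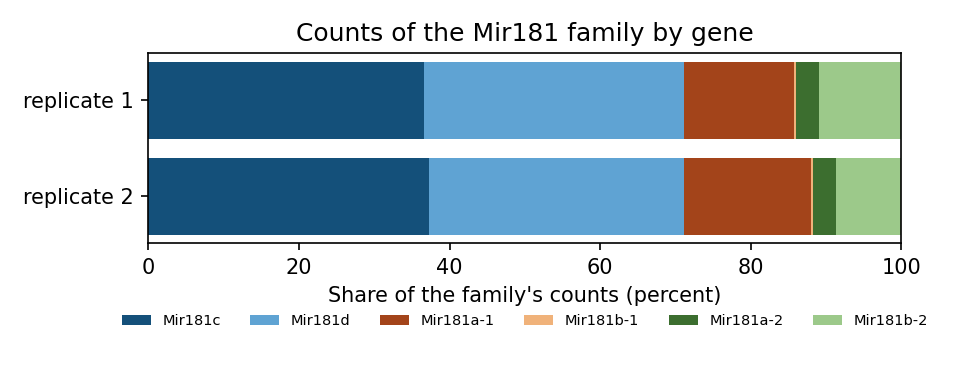
Share of the family's counts (percent, horizontal axis) taken by each of the 6 genes in replicate 1 and replicate 2, with the members of a genomic pair side by side in related colours. Mir181c and Mir181d take 71.0% and 71.2%, and Mir181b-2 goes from 11.0% in replicate 1 to 8.57% in replicate 2.

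Every member was lower in replicate 2 than in replicate 1. Mir181b-2, with its 1746 and 1077 CPM, had the largest difference, a log2 ratio of replicate 2 over replicate 1 of -0.70 (counting interval -0.76 to -0.64), and Mir181a-1 the smallest, -0.14 (-0.19 to -0.09). Mir181c had -0.31 (-0.34 to -0.28) and Mir181d -0.37 (-0.40 to -0.33). Mir181a-2 had -0.32 (-0.42 to -0.21), and Mir181b-1, with the fewest counts and the widest interval, -0.59 (-1.02 to -0.19). All 6 passed the exact two-sided binomial test between the libraries, adjusted by the Benjamini-Hochberg method over 449 genes, at adjusted p-values from 3.56e-111 (Mir181b-2) to 0.0111 (Mir181b-1). Over all tested genes 20.3% passed in the same direction (91 of 449, with 90 passing in the other). The share rose with the minimum count, from 11.1% with no minimum to 23.7% with at least 10 counts in each library. All members but Mir181b-1 had far more counts than that, and the share among genes of their depth was not computed. The tests compare these libraries beyond counting error and are no test of a condition, and nothing in the design tells a difference in cell makeup from one in RNA per cell.

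The differences were set beside the spread over all genes above a low level. Over the 320 genes that averaged 10 CPM or more, the log2 ratio had a median of 0.02 and an SD of 0.39, and 151 genes (47.2%) were lower in replicate 2. The members' median was -0.34. The ratios of Mir181b-2 and Mir181b-1 lay more than that SD below 0, with 12 and 17 of the 320 genes lower still. Those of Mir181d, Mir181a-2, Mir181c and Mir181a-1 lay within it, with 37, 48, 49 and 98 genes lower. The SD also holds the counting noise of genes with few counts, and the SD among genes of the members' depth was not computed. Mir181c and Mir181d stood low among genes of their level. Of genes outside the family with a mean above the 4870.4 CPM of Mir181d, only Mir182 (-0.63) and Mir30e (-0.32) lay below Mir181c. Members of a pair share a neighbourhood and members with a shared arm share sequence, so the 6 are not independent of each other.

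**Figure D3:**
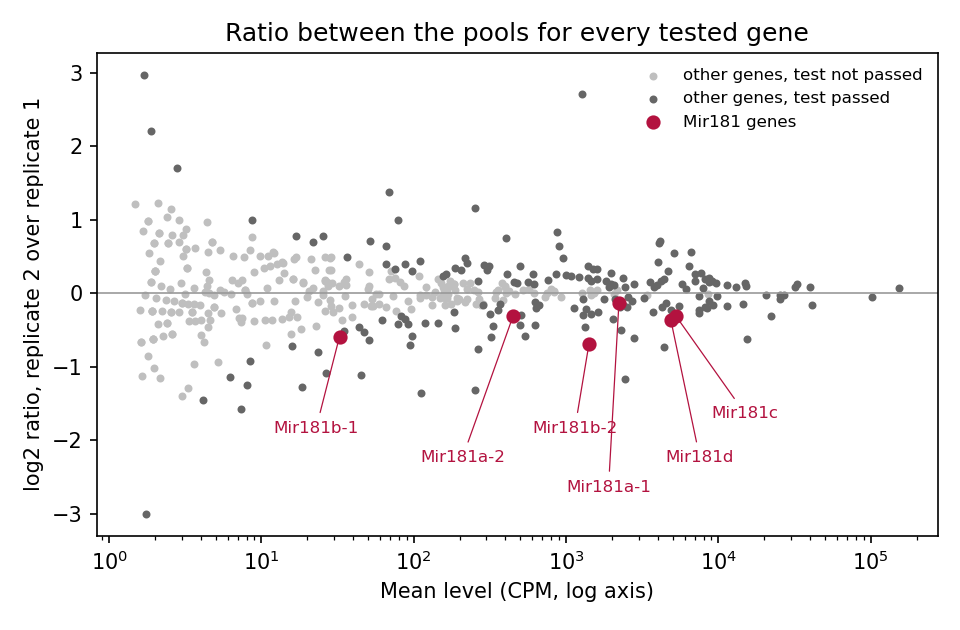
Log2 ratio of replicate 2 over replicate 1 (vertical axis, pseudocount 0.5 CPM) against the mean level in CPM (log axis) for the 449 tested genes, with dark points for those that passed the exact binomial test. The 6 Mir181 genes lie below 0, from -0.14 (Mir181a-1) to -0.70 (Mir181b-2), with Mir181b-2, Mir181c and Mir181d toward the lower edge of genes of their level.

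The split of reads inside a pair ranged from even to almost one-sided. Mir181c had 51.5% of the reads of its pair in replicate 1 (exact interval 50.9% to 52.0%) and 52.4% in replicate 2 (51.9% to 53.0%). Mir181a-2 had 22.2% (21.1% to 23.2%) and 27% (25.8% to 28.3%) of its pair, so Mir181b-2 was 3.51 and 2.70 times higher. Mir181a-1 had 98.3% (98% to 98.6%) and 98.8% (98.5% to 99.0%) of its pair and was 59.3 and 81.7 times higher than Mir181b-1. In assigned counts the paralogous pairs on chromosomes 1 and 2 thus had opposite leaders in each library, the a gene in one and the b gene in the other. Reads of the annotated length from their shared 5p arms are missing from these counts, so the leaders need not be those of the full output. Over the 107 pairs of neighbouring miRNA genes within 10 kb with at least 10 counts per gene, the median absolute log2 ratio between partners was 2.57, with an upper quartile of 4.89. The Mir181c pair, at 0.11, was more even than most, with 104 pairs less even, while 16 pairs were less even than the Mir181a-1 pair, at 6.12.

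The split differed between the libraries in part of the pairs. By Fisher's exact test, two-sided and adjusted over the 107 pairs, it changed for Mir181a-2 and Mir181b-2 (log2 ratio -1.81 in replicate 1 and -1.43 in replicate 2, adjusted p = 1.02e-08). It also changed, by a much smaller amount, for Mir181c and Mir181d (0.09 and 0.14, adjusted p = 0.0437). The pair of Mir181a-1 and Mir181b-1 did not pass (5.89 and 6.35, adjusted p = 0.0712), with the 112 and 91 counts of Mir181b-1 behind it. Of all pairs 36.4% passed, so 2 of the 3 is not read as a property of this family. The median absolute shift between libraries over all pairs was 0.17, against 0.38 for the Mir181a-2 pair, 0.46 for the Mir181a-1 pair and 0.06 for the Mir181c pair.

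**Figure D4:**
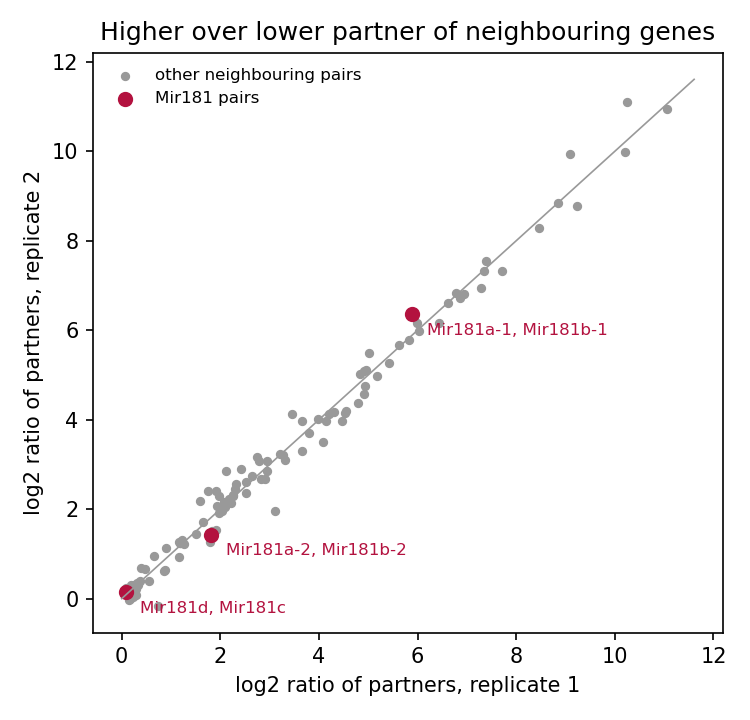
Log2 ratio of the higher over the lower partner (higher in replicate 1) of each of 107 pairs of neighbouring miRNA genes, in replicate 1 (horizontal axis) and replicate 2 (vertical axis), with the line of equality. The Mir181 pairs lie near the line at 0.09, 1.81 and 5.89 in replicate 1, from an even split to 1 of the more one-sided pairs.

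No read was counted on the strand opposite any of the 6 genes in either library. For Mir181c and Mir181d this allows an opposite-strand level of up to 0.0181% to 0.0200% of the gene's own counts, and for Mir181b-1 of up to 2.68% and 3.30% (3 counts of the total). Opposite-strand reads were counted at 74 of the 1973 genes. The annotation has genes on that strand at 4 of the members, Nr6a1 over the chromosome 2 pair, with an exon of Gm44144 at Mir181b-2, and the long non-coding Gm26936 over the chromosome 1 pair.

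Among genes with at least 10 counts in each library that matched RefSeq arms (339 genes), the 45 with an arm shared with another gene had a median of 74.9 CPM (quartiles 23.6 and 402), and the 294 without one a median of 208 CPM (26.6 and 1899). Mir181a-1 (2221 ± 152 CPM), Mir181b-2 (1412 ± 473 CPM) and Mir181a-2 (448 ± 69.1 CPM) lay above the upper quartile of the former and Mir181b-1 (32.6 ± 9.46 CPM) between its quartiles. These members are themselves among the 45 genes that set those quartiles. Members of other families that share an arm with another gene are given for comparison. In the Mir30 family Mir30c-1 (117 and 124 CPM) and Mir30c-2 (33.3 and 38.1 CPM) lay below Mir30e (24676 and 19789 CPM) and near Mir30b (155 and 159.8 CPM), which is not named as a copy. In the Mir29 family, known to repress collagen genes, Mir29b-1 (1.05 and 1.42 CPM) and Mir29b-2 (0 and 0.569 CPM) lay below Mir29c (76.7 and 85.3 CPM) and Mir29a (34.3 and 37 CPM), whose arms are not shared and whose levels are also low. The part that lost shared reads play in these levels was not tested.

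The Mir181 sum was close to that of the Mir23, Mir27 and Mir24 genes (14824 and 14504 CPM over 5 matched genes), with the Mir181 genes higher in replicate 1 and lower in replicate 2. It was 142 and 101 times the sum of the Mir29 family, and the Mir30 family was 2.42 and 2.55 times higher than the Mir181 family. An arm was shared in 4 of the 6 Mir181 genes, against 1 of 5 Mir23, Mir27 and Mir24 genes. It was shared in 2 of 4 Mir29 genes and in 2 of 6 Mir30 genes, with 2 more Mir30 genes not matched in the RefSeq table. The sums compare assigned counts alone, and the families may lose unlike parts of their reads. Between the libraries, 2 of 5 genes of the Mir23, Mir27 and Mir24 group passed the test as lower and 1 as higher (median log2 ratio -0.03). In the Mir30 family 3 of 6 passed as lower (median -0.04), and in the Mir29 family 0 of 2 tested genes passed the exact binomial test (0 at an unadjusted p under 0.05), with an adjusted p of 0.424 for Mir29c.

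Marker miRNAs of several cell types in which the family is known had low assigned counts. The leukocyte list (Mir223, Mir155, Mir150, Mir146 and Mir142b matched) summed to 461 and 453 CPM, led by Mir223, a myeloid miRNA, with 245 and 253 CPM. Of its 4 tested genes 0 passed the exact binomial test between the libraries (0 at an unadjusted p under 0.05), its median log2 ratio was -0.05, and Mir142b had 0 counts. Mir142 and Mir142a were also listed but matched no gene of the tables, so the 0 of Mir142b does not give their level. The neural list summed to 723 and 629.8 CPM, nearly all from Mir137 (680.2 and 593 CPM), and the eye and lens list to 805 and 672 CPM, led by Mir204 (402 and 402 CPM). The striated muscle list summed to 26.6 and 11.4 CPM, led by Mir206, with Mir133a-1 and Mir133a-2 at 0 counts. In the neural list 2 of 6 genes (Mir9-2 and Mir9-3) share a mature arm with another gene and 3 were not matched in the RefSeq table, as were 2 of 5 in the muscle list, so for these lists low counts need not mean low levels. The Mir181 sum was 34.5 and 27.7 times that of the matched leukocyte genes. In contrast Mir126a, an endothelial miRNA, had 31642 and 34369 CPM, 1.99 and 2.74 times the Mir181 sum.

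Some of these lists were lower in replicate 2 as the Mir181 genes were. The epithelial list summed to 28691 and 23965 CPM, with 6 of 7 genes passing as lower (median log2 ratio -0.27) and no marker at 0. The mesenchymal list summed to 26189.8 and 23099 CPM, with 3 of 6 genes passing as lower (median -0.19) and no marker at 0. Mir199a-2 of that list had a log2 ratio of 0.12 and did not pass. In it 3 of 6 genes (Mir199a-1, Mir199a-2 and Mir199b) share a mature arm with another gene, and 2 were not matched in the RefSeq table. In the eye and lens list 1 of 3 genes, Mir211 (387 and 256 CPM), passed as lower (median -0.26), and in the muscle list Mir206 (26.3 and 10.5 CPM) was the 1 gene tested and passed as lower. The neural list had 2 genes passing as lower and 2 as higher, with a median of 0.75 but a lower sum, and its higher genes had very low levels (Mir124a-3 at 0 and 3.41 CPM). Mir126a passed as higher in replicate 2, with a log2 ratio of 0.12. The part of any of these cell types in the Mir181 differences was not tested.

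The genes outside the family most like Mir181c in level were found by the distance in log2 CPM over the 2 libraries. They were Mir342 (5802 and 5146 CPM, distance 0.133), Mir96 of the sensory Mir183 cluster (5312 and 4509.5 CPM, 0.144) and Mir30d (4740.1 and 4322 CPM, 0.319). Each was lower in replicate 2, with log2 ratios of -0.17, -0.24 and -0.13, against -0.31 for Mir181c. With 2 points per gene this likeness describes the level and no more.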

How the data were processed

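Small RNA (inserts under 30 nt, per the labels) of 2 libraries was sequenced, and no extraction protocol is given. The deposited tables hold raw counts per miRNA gene on mm10 with GENCODE M4, per the file headers of the accompanying text files; the aligner is not given in the sources used here. Each table has 4 summary lines, left out of library totals: in replicate 1 and 2, 21.6% and 24.1% of reads were unmapped and 9.01% and 9.32% outside genes. Sense counts were used (97.6% of gene reads).

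Symbols, positions and hosts came from GENCODE M21 on the same build, by identifier without version (1894 of 1973 matched, the other 79 with at most 3 counts). CPM used the total over all genes. Log2 ratios used a pseudocount of 0.5 CPM. Genes with at least 10 counts in all entered two-sided exact binomial tests (SciPy 1.17.1) against the library totals, and neighbouring pairs Fisher's exact tests, with Benjamini-Hochberg adjustment and a threshold of 0.05. TMM factors (edgeR 4.0.16) and DESeq2 1.42.0 size factors were alternatives. The procedures were tested on simulated data.

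The members, lists and tests were chosen with earlier results of these data known. The genes named are the members, the highest gene of each of 7 marker lists, and the 3 genes outside the family nearest to the highest member. Other genes were picked with their values in view. They are named as examples of copies, as the lowest of a list, as genes of high level, as genes at 0 or as those passing a test. The labels call the libraries biological replicates.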

Additional observations from a re-analysis of the deposited data

How the results depend on the processing

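Of 135 alternative values, 120 stayed within the spread or on the same side of the test, 15 moved and 0 reversed. All 6 members stayed lower in replicate 2 and past the test under each of 9 alternatives. These were unstranded counts, other totals, TMM, DESeq2 size factors, other minimum counts and other pseudocounts. The pseudocounts could change neither the test nor the direction, and the minimum counts act on a member only through the adjustment. Those settings were thus nearly fixed in advance, and they are also among the 120. With 2 libraries, leaving 1 out always moves a mean by less than its SD. The values without replicate 1 or replicate 2, also among the 120, thus had to stay within the spread. The share of all genes passing as lower ran from 11.1% with no minimum count to 23.7% with 10 counts in each library. The family's mean level is relative to its total: it was 5882 CPM of all reads, 19122 CPM without Mir335 and Mir17, the 2 highest genes, in the total, and from 12561 CPM without replicate 1 to 15919 CPM without replicate 2. With pairs limited to 1 kb, 1 pair of the family passed the test of the split, because Mir181a-2 and Mir181b-2, 1019 bases apart, were no longer among the pairs. The number of separated steps in the order was 3 under each of 6 alternatives, chosen after seeing the data. Other totals, TMM and DESeq2 size factors scale all genes of a library alike and cannot change the order or gaps within it. Per 100 bases of hairpin Mir181d stood above Mir181c, and the first separated step was then Mir181c above Mir181a-1. The limit is depth for Mir181b-1 and shared sequence for the a and b genes. No paired analysis was possible because the libraries form 1 group.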
